A study of Mus with 4 samples.

Results

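The genes of the mitochondrial genome were examined in RNA-seq libraries of newborn mouse hearts, to ask how their transcripts varied between wild-type (WT) animals and animals carrying extra miR-187. The members were 37 Ensembl gene IDs, chosen by ID alone with the version suffix dropped, and all 37 were found among the 55487 IDs of the deposited table. There were 4 libraries of heart tissue from postnatal day 0 (P0), with 2 replicates labelled WT and 2 labelled miR-187. By the study's methods, the miR-187 line was made on a C57BL/6J background by knock-in at *Rosa26*, where the *Tek* (*Tie2*) promoter drives mmu-miR-187 in endothelial cells, and homozygous (KI/KI) and WT newborns were used for RNA-seq. The labels do not give the zygosity, and they name heart tissue where the methods name cardiac endothelial cells. Neither the knock-in nor the cell content of the libraries was checked here, since that needs gene symbols for other IDs.

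Mitochondria keep a small circular genome of their own, which encodes core subunits of the respiratory chain and of ATP synthase together with the rRNAs and tRNAs that translate them. Both strands are transcribed as long precursors, from which the tRNAs are cut out so that the mRNAs and rRNAs lying between them are released, and steady-state levels then depend on processing and decay as well as on transcription. Heart muscle is rich in mitochondria, so that transcripts of this genome are among the most abundant in cardiac RNA. In bulk tissue, fewer cells of a type and less RNA per cell cannot be told apart.

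In the RefSeq gene table for GRCm38.p6, the assembly that corresponds to the mm10 build named in the submitters' processing notes, the mitochondrial chromosome carries 37 genes. These are 13 protein genes of 204 to 1824 bases, 2 rRNA genes of 955 and 1582 bases and 22 tRNA genes of 59 to 75 bases. Neighbouring genes overlap in 9 places, the longest being the 43 bases shared by ATP8 and ATP6. The library fragments were selected at 350 to 550 bp, so all 22 tRNA genes and 3 of the protein genes are shorter than the fragments. The table holds no Ensembl IDs, and the deposited table pairs no symbols with its own, so the class of each ID was not analysed here and members are given by ID. The exception is ENSMUSG00000065947.3, whose symbol (*mt-Nd4l*) came with the list of members. This gene, ND4L in RefSeq, encodes a subunit of complex I, the NADH dehydrogenase of the respiratory chain. It lies on the mitochondrial chromosome at bases 9877 to 10173 (GRCm38.p6) and shares 7 bases with the following gene, ND4. At 297 bases, it belongs to the 3 protein genes shorter than the fragments.

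Values are FPKM (fragments scaled to transcript length and to the number mapped in the library), as deposited. They carry no read counts, so the depth of each library is unknown. FPKM sums ran from 750826 to 807359 per library. The most abundant ID outside the mitochondrial genome, ENSMUSG00000075014.1, took 18.5% and 21.0% of the sum in WT replicate 1 and miR-187 replicate 1, but 4.45% and 3.03% in WT replicate 2 and miR-187 replicate 2. The share of this ID thus differed between replicates of each group, and it enters the denominator of a share of the FPKM sum over all IDs.

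Mitochondrial genes supplied a large part of all FPKM, and the highest share was in 1 miR-187 library. The 37 genes made up 25.4% of the FPKM sum in WT replicate 1 and 27.4% in WT replicate 2. Their share was 25.9% in miR-187 replicate 1 and 34.6% in miR-187 replicate 2. The first of the miR-187 libraries lay between the WT libraries and the second lay above them, so the groups overlapped. The means were 26.4% ± 1.42 in WT and 30.2% ± 6.19 in miR-187 (SD, n = 2 each), and the ratio of the means taken on the log scale was 1.14. An exact two-sided permutation test gave p = 0.667, where the smallest p this design allows is 0.33. On the log2 scale the difference between groups was 0.18, and without miR-187 replicate 2 it became -0.03.

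When the most abundant non-mitochondrial ID was left out of the sum, WT replicate 1 had 31.1% and WT replicate 2 had 28.6%, against 32.7% and 35.7% in the miR-187 libraries in order of replicate. The groups then no longer overlapped, and the order of the WT libraries was turned. The means were 29.9% ± 1.77 in WT and 34.2% ± 2.09 in miR-187 (SD, n = 2 each; exact permutation p = 0.33, the smallest possible). The ratio on the log scale, again 1.14, was close to that over all IDs, whereas the spread within miR-187 was smaller.

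**Figure D1:**
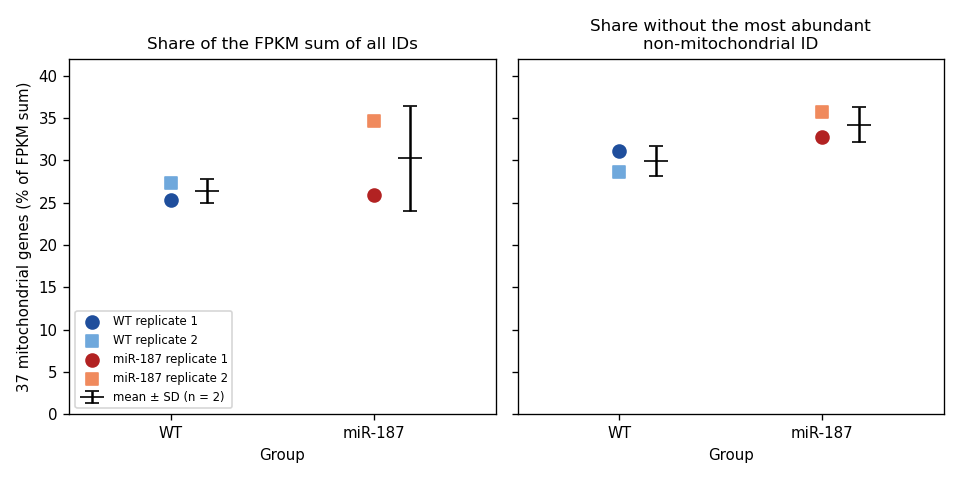
Share of the FPKM sum held by the 37 mitochondrial genes in each library, in percent, over all IDs (left) and without the most abundant non-mitochondrial ID (right). Points are libraries and bars are the mean ± SD of 2 libraries; miR-187 replicate 2 is highest in both panels, at 34.6% and 35.7%, and the groups overlap only on the left.

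Levels ranged over more than 3 orders of magnitude. All 37 genes had values above 0 in every library and passed the minimum mean of 1 FPKM. The mean of the highest was 5325 times that of the lowest. In each library, 5 of the 10 most abundant IDs and 15 or 16 of the 50 most abundant were mitochondrial. The 5 highest mitochondrial genes held 57.5% and 59.8% of the mitochondrial FPKM in WT, against 62.3% and 59.5% in miR-187 (replicate 1 before replicate 2, here and below). FPKM is scaled by length, so levels can be set side by side across genes, although values of genes shorter than the fragments depend on how the authors' program treated short transcripts.

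The highest mean belonged to ENSMUSG00000064341.1. It had 26137 and 27987 FPKM in the WT libraries, and 31475 and 30819 FPKM in those of miR-187, so the groups did not overlap. ENSMUSG00000064357.1 followed, with 28073 and 28585 FPKM in WT, 23280 FPKM in miR-187 replicate 1 and 34080 FPKM in miR-187 replicate 2. Here the WT libraries were nearly alike and the miR-187 libraries fell on either side of them. ENSMUSG00000064370.1 had 23716 and 27411 FPKM in WT, against 28826 and 33850 in miR-187, without overlap. The values of these 3 genes crossed one another from library to library, and their order was not separated by the spread.

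ENSMUSG00000064351.1 stood at 20846 and 21998 FPKM in WT and at 22283 FPKM in miR-187 replicate 1, but at 34821 FPKM in miR-187 replicate 2, the highest value of any mitochondrial gene. ENSMUSG00000064358.1 had 19028 and 16303 FPKM in WT, against 20544 and 23385 in miR-187. In ENSMUSG00000064352.1 the values were 17071 and 16809 FPKM in WT, 15279 FPKM in miR-187 replicate 1 and 29533 FPKM in miR-187 replicate 2. This gene and ENSMUSG00000064351.1 thus shared 3 libraries of similar level and a single high one. ENSMUSG00000064356.3 had 17583 and 16061 FPKM in WT, against 12787 and 20918 in miR-187, again with the miR-187 libraries on either side of WT.

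Among the next genes, ENSMUSG00000064354.1 varied little, with 11206 and 12050 FPKM in WT, against 12356 and 13540 in miR-187. ENSMUSG00000064363.1 was similar, at 9284 and 9629 FPKM in WT, against 10213 and 12537 in miR-187. Both had groups that did not overlap. In ENSMUSG00000064339.1 the groups overlapped widely, with 10054 and 8052 FPKM in WT, against 7627 and 12416 in miR-187. ENSMUSG00000064345.1 had 7582 and 7682 FPKM in WT, against 5676 and 8182 in miR-187, and ENSMUSG00000064368.1 had 5194 and 3661 FPKM in WT, against 3231 and 7116 in miR-187. In both, miR-187 replicate 1 was the lowest library and miR-187 replicate 2 the highest.

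ENSMUSG00000064367.1 had 3009 and 3132 FPKM in WT, against 3266 and 4514 in miR-187. The complex I gene *mt-Nd4l* (ENSMUSG00000065947.3) had 1376 and 1616 FPKM in WT, against 1699 and 2009 in miR-187. Its group means were 1496 ± 169 and 1854 ± 220 FPKM (SD, n = 2 each), and the groups did not overlap. ENSMUSG00000064337.1, the last of the 15 genes whose mean reached 1000 FPKM, had 1592 and 1495 FPKM in WT, against 1183 and 1949 in miR-187. Of these 15 genes, 14 were highest in miR-187 replicate 2, compared with 14 of 40 other IDs at that level (35.0%). Those 40 included 4 IDs within 10% of a mitochondrial gene in every library, all highest in that library, and without them the count was 10 of 36 (27.8%). Just under this level, ENSMUSG00000064360.1 had 1040 and 771 FPKM in WT, against 757 and 1266 in miR-187.

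**Figure D2:**
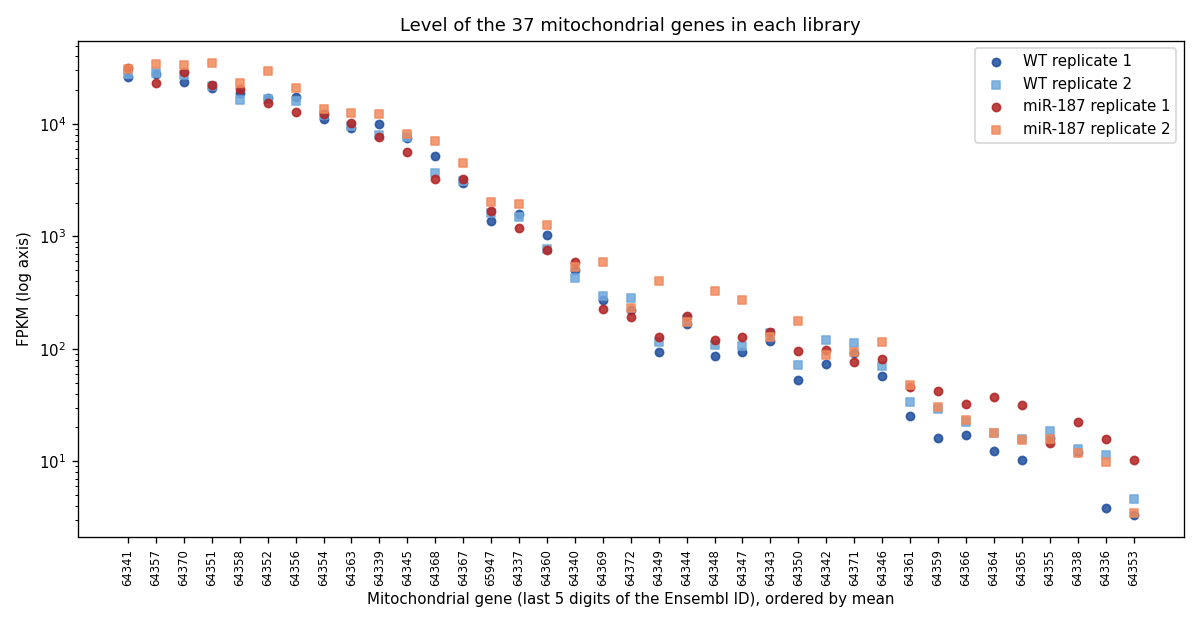
FPKM of the 37 mitochondrial genes in each of the 4 libraries on a log axis, ordered by mean and labelled with the last 5 digits of the Ensembl ID. miR-187 replicate 2 (orange squares) is the highest library in 14 of the 15 genes whose mean reached 1000 FPKM, and miR-187 replicate 1 (dark red circles) in 7 of the 9 lowest genes.

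A run of consecutive IDs was raised in miR-187 replicate 2. In the 5 genes ENSMUSG00000064346.1 to ENSMUSG00000064350.1, the libraries took the same order in every gene, with WT replicate 1 lowest, then WT replicate 2, miR-187 replicate 1 and miR-187 replicate 2. This order was not particular to the run. It was also found in ENSMUSG00000064351.1, ENSMUSG00000064354.1, ENSMUSG00000064361.1, ENSMUSG00000064363.1, ENSMUSG00000064367.1, ENSMUSG00000064370.1 and *mt-Nd4l*. Within the run, the largest gap was in ENSMUSG00000064349.1, which had 93.8 and 114 FPKM in WT, 128 FPKM in miR-187 replicate 1 and 405 FPKM in miR-187 replicate 2. ENSMUSG00000064348.1 had 87.1 and 108 FPKM in WT, against 121 and 329 in miR-187. ENSMUSG00000064347.1 had 93.2 and 107 FPKM in WT, against 128 and 272 in miR-187.

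Levels were lower in ENSMUSG00000064350.1, with 52.5 and 71.2 FPKM in WT, against 94.9 and 179 in miR-187, and in ENSMUSG00000064346.1, with 57.8 and 71.0 FPKM in WT, against 81.4 and 115 in miR-187. The value in miR-187 replicate 2 was between 1.41 and 3.17 times the next library over these 5 genes. In the IDs that follow, ENSMUSG00000064351.1 and ENSMUSG00000064352.1, it was 1.56 and 1.73 times the next library, so the values set no sharp end to the run. Summed, the 5 genes came to 384 and 471 FPKM in WT, against 553 and 1299 in miR-187. As a fraction of the mitochondrial sum, which removes any factor common to all mitochondrial genes, this was 0.188% and 0.229% in WT and 0.273% and 0.474% in miR-187. The run was noticed after the values were seen and was not tested as a set, and its position on the genome was not analysed here.

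Another gene of similar level, ENSMUSG00000064369.1, was also high in miR-187 replicate 2, with 595 FPKM against 273 and 297 in the WT libraries and 227 in miR-187 replicate 1. By contrast, ENSMUSG00000064340.1 had 502 and 426 FPKM in WT, against 597 and 536 in miR-187, without a library standing apart. The genes ENSMUSG00000064343.1 and ENSMUSG00000064344.1 hardly varied. The former ranged from 117 to 141 FPKM and the latter from 168 to 195 FPKM over the 4 libraries. ENSMUSG00000064342.1 ran from 73.5 FPKM in WT replicate 1 to 121 FPKM in WT replicate 2, with both miR-187 libraries between them. In ENSMUSG00000064371.1 and ENSMUSG00000064372.1, miR-187 replicate 1 was lowest, at 77.2 and 191 FPKM, and WT replicate 2 was highest, at 114 and 282 FPKM.

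The lowest genes followed another library. Among the 9 genes with a mean under 50 FPKM, 7 were highest in miR-187 replicate 1 and 7 were lowest in WT replicate 1. Among 13266 other IDs with a mean from 1 to 50 FPKM, 31.7% were highest in miR-187 replicate 1 and 21.0% were lowest in WT replicate 1. Summed, the 9 genes had 116 and 166 FPKM in WT, against 252 and 175 in miR-187. ENSMUSG00000064364.1 had 12.2 and 17.7 FPKM in WT, against 37.01 and 17.9 in miR-187, and ENSMUSG00000064365.1 had 10.3 and 15.8 FPKM in WT, against 32.0 and 15.4 in miR-187. In both, WT replicate 2 and miR-187 replicate 2 were alike.

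The lowest of all, ENSMUSG00000064353.1, had 3.36 and 4.65 FPKM in WT, against 10.4 and 3.50 in miR-187. ENSMUSG00000064336.1 had the widest range in relative terms of the low genes, from 3.83 FPKM in WT replicate 1 to 15.7 FPKM in miR-187 replicate 1. ENSMUSG00000064338.1, ENSMUSG00000064359.1 and ENSMUSG00000064366.1 were likewise highest in miR-187 replicate 1, at 22.2, 42.1 and 32.5 FPKM. ENSMUSG00000064361.1 was about level in the miR-187 libraries, at 45.6 and 47.4 FPKM, and lower in WT, at 25.3 and 33.6 FPKM. ENSMUSG00000064355.1 was the only member lower in both miR-187 libraries, with 16.2 and 18.6 FPKM in WT, against 14.6 and 15.9 in miR-187.

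**Figure D3:**
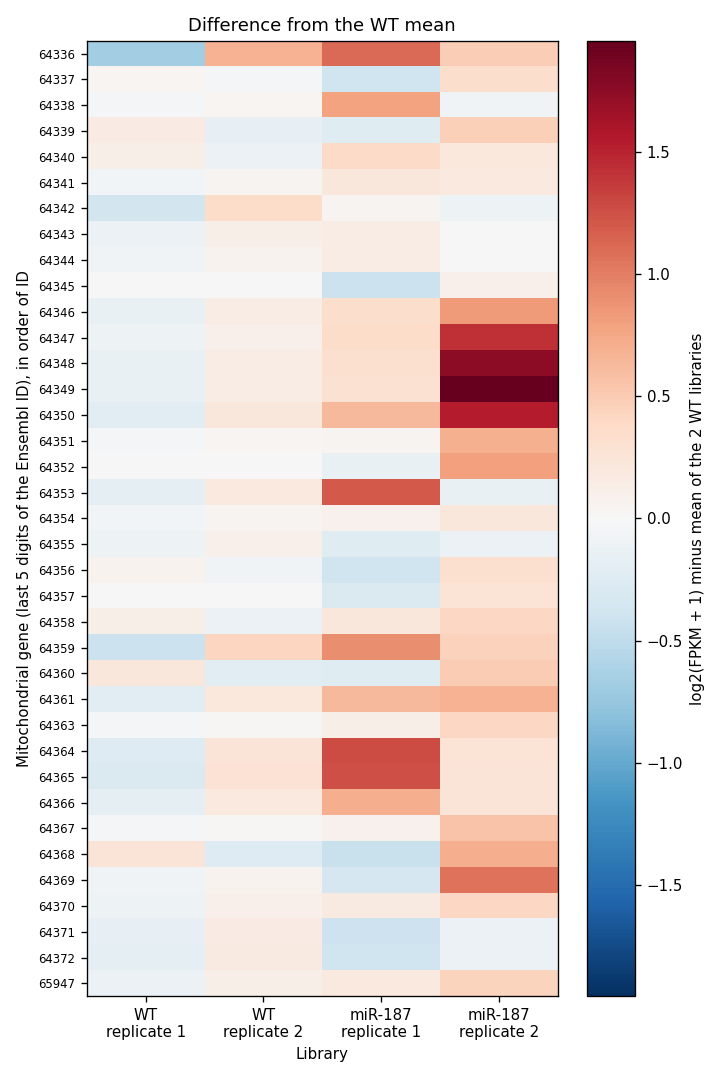
Difference of each library from the mean of the 2 WT libraries on the log2(FPKM + 1) scale, for the 37 mitochondrial genes in order of Ensembl ID (red higher, blue lower). The strongest red is in miR-187 replicate 2 in the run ENSMUSG00000064347.1 to ENSMUSG00000064350.1, whereas low genes such as ENSMUSG00000064353.1, ENSMUSG00000064364.1 and ENSMUSG00000064365.1 are red in miR-187 replicate 1.

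No mitochondrial gene passed the adjusted threshold between the groups, each of which held 2 libraries. The groups were compared with limma on log2(FPKM + 1) over the 14325 IDs whose mean reached 1 FPKM. None of the 37 genes had a Benjamini-Hochberg adjusted p under 0.05 (0 higher and 0 lower, limma), where 1 of all IDs tested, 0.00698%, passed. Before adjustment, 3 were higher in miR-187 with p under 0.05 and 0 were lower, where 1.32% of all IDs tested were higher and 1.8% lower at that p. The count of 3 ran from 0 without a filter to 8 without WT replicate 2 over the alternatives, and was 1 with median centring, TMM scaling (trimmed mean of M-values), scaling to the mitochondrial sum or WT replicate 1 left out. The 3 genes belonged to the run described above. The log2 difference was 1.13 ± 0.49 (SE) in ENSMUSG00000064349.1, 1.08 ± 0.43 in ENSMUSG00000064350.1 and 1.04 ± 0.47 in ENSMUSG00000064348.1, each with a limma adjusted p of 1.00. In the same run, ENSMUSG00000064347.1 had a log2 difference of 0.90. These differences depended on which miR-187 library was left out. Without miR-187 replicate 2 they were 0.30 in ENSMUSG00000064349.1, 0.63 in ENSMUSG00000064350.1, 0.32 in ENSMUSG00000064348.1 and 0.36 in ENSMUSG00000064347.1. Without miR-187 replicate 1 they were 1.95, 1.53, 1.75 and 1.43 in the same order. The low gene ENSMUSG00000064336.1 had a log2 difference of 0.80, which was 0.12 without WT replicate 1 and 1.47 without WT replicate 2. For *mt-Nd4l* (ENSMUSG00000065947.3) the log2 difference was 0.31 ± 0.44 (SE; limma adjusted p = 1.00), and it ran from 0.19 to 0.43 with 1 library left out. Scaled to the mitochondrial sum it was 0.11, and with quantile normalization it was 0.59.

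Differences at the abundant end were smaller than their limma standard errors. On the log2(FPKM + 1) scale they were 0.20 ± 0.44 (SE) in ENSMUSG00000064341.1, 0.29 ± 0.44 in ENSMUSG00000064370.1, 0.38 ± 0.45 in ENSMUSG00000064351.1 and 0.32 ± 0.44 in ENSMUSG00000064358.1. These standard errors rest largely on the spread of other IDs at a similar level. Replicate 2 minus replicate 1 was 0.10 in WT and -0.03 in miR-187 for ENSMUSG00000064341.1, and 0.08 and 0.64 for ENSMUSG00000064351.1. Without miR-187 replicate 2, the group difference of ENSMUSG00000064351.1 was 0.06 and that of ENSMUSG00000064370.1 was 0.18. With each library scaled to its mitochondrial sum, the differences in ENSMUSG00000064341.1, ENSMUSG00000064370.1, ENSMUSG00000064351.1 and ENSMUSG00000064358.1 were 0.002, 0.09, 0.18 and 0.11. With quantile normalization they were -0.06, 0.14, 0.23 and 0.12 in the same order. The 5 highest genes held from 57.5% to 62.3% of the mitochondrial sum, so scaling to it offsets gains in some with losses in others by construction. In ENSMUSG00000064357.1 the difference was -0.01 ± 0.45 (SE). It was -0.21 when scaled to the mitochondrial sum and -0.10 with quantile normalization. Its sign changed with median centring and with TMM scaling, and that of ENSMUSG00000064341.1 changed with quantile normalization. Over the 37 genes the log2 difference ran from -0.26 to 1.13 and was positive in 29, with a median of 0.31, against a median of -0.04 over all IDs tested, of which 44.3% were positive. The number of positive differences among the 37 was 23 when each library was scaled to its mitochondrial sum, which moved the median over all IDs to -0.19, and 30 to 33 with median centring, TMM scaling or quantile normalization. Without miR-187 replicate 2 the median over the 37 genes was 0.15, and 25 were positive, while the median over all IDs became 0.06.

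**Figure D4:**
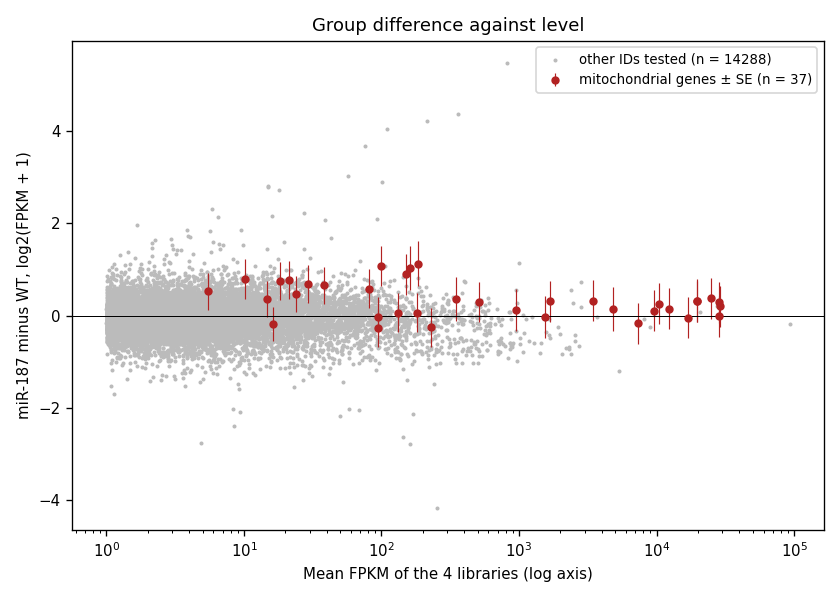
Group difference (miR-187 minus WT, log2(FPKM + 1)) against the mean FPKM of the 4 libraries on a log axis. Red points are the 37 mitochondrial genes with standard errors from limma and grey points the other 14288 IDs tested; 29 of the 37 lie above 0, and the highest is at 1.13.

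In 18 of the 37 genes the lower miR-187 value exceeded the higher WT value, and in 1 the groups were separated the other way. Over all IDs tested these arrangements were found in 12.3% and 13.2%. The mitochondrial genes share their libraries and cannot be counted as separate observations of the groups. Scaling each library to its own mitochondrial sum offsets gains with losses among the 37 by construction. It left 8 of the 37 higher and 7 lower without overlap, where 4.59% of all IDs tested were higher and 19.1% lower. When each library was scaled without the most abundant non-mitochondrial ID, 14 were higher and 4 lower, where 10.2% of all IDs were higher and 11.3% lower. Compared library by library, the median log2 difference of the 37 genes was 0.43 for miR-187 replicate 2 minus WT replicate 1 and 0.31 for miR-187 replicate 2 minus WT replicate 2. It was 0.25 and 0.07 for miR-187 replicate 1 minus the same WT libraries, and 0.19 for WT replicate 2 minus WT replicate 1. Within miR-187 it was 0.26 for replicate 2 minus replicate 1, so the libraries of this group were as far apart as some libraries of different groups. For the other IDs tested, miR-187 replicate 2 was lower than WT replicates 1 and 2 and than miR-187 replicate 1, with median log2 differences of -0.12, -0.14 and -0.19.

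Some members had a near-identical counterpart elsewhere in the table. At a mean of 1000 FPKM or more there were 40 non-mitochondrial IDs, and 4 of them had values no more than 10% away from a mitochondrial gene in each library. ENSMUSG00000101111.1 differed from ENSMUSG00000064358.1 by at most 0.511%, and ENSMUSG00000102070.1 differed from ENSMUSG00000064354.1 by at most 1.24%. ENSMUSG00000067736.2 stayed within 1.93% of *mt-Nd4l* (ENSMUSG00000065947.3), at 1384 and 1618 FPKM in WT, against 1666 and 2014 in miR-187. ENSMUSG00000100862.1 differed from ENSMUSG00000064357.1 by at most 5.34%. Copies of mitochondrial DNA lie in nuclear chromosomes, and RefSeq lists a pseudogene on chromosome 1 (Gm10925, 24613971 to 24614651, GRCm38.p6) with *mt-Atp6* among its synonyms and a length of 681 bases, that of ATP6. Whether these 4 IDs are such copies was not tested, and the values of the 4 members beside them are uncertain to the extent that reads were shared. With the 4 IDs added, the share of the FPKM sum was 32.8% and 35.2% in WT and 33.4% and 44.0% in miR-187, with miR-187 replicate 2 again the highest library.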

How the data were processed

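The authors deposited 1 table of FPKM values for 55487 Ensembl gene IDs in 4 libraries (2 WT, 2 miR-187), sequenced paired-end on an Illumina NovaSeq instrument. The submitters' processing notes name HISAT2, StringTie, DESeq2 and build mm10, and versions, annotation and use of strand are not given in the sources used here. Ratios of low values between each pair of libraries were searched for the steps that whole reads would leave, and none were seen, so depth is unknown, no counting interval or detection limit is given, and precision rests on 2 replicates per group. The labels do not say whether replicates are separate animals, so p-values rest only on the spread between these libraries. For limma, that spread is pooled over the IDs tested (19.5 prior degrees of freedom in the main fit). The p-value and SE of a single gene therefore rest mostly on other IDs of similar level.

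The 37 members were matched by ID. A RefSeq table (GRCm38.p6, 49997 rows) held 0 Ensembl IDs, so 0 IDs were given symbols by it, and the planned comparisons by gene class, with nuclear respiratory chain genes and with cell type markers were not run. All 37 members passed the minimum mean of 1 FPKM and fell under the naming rule. Group log2 differences are given for *mt-Nd4l*, the 5 genes with the highest mean and the 5 with the largest difference. Values were transformed as log2(FPKM + 1), a scale that understates changes of low genes, and tested in R 4.3.3 by limma 3.58.1 (linear model, eBayes with trend, no replicate block), two-sided, with Benjamini-Hochberg adjustment over 14325 IDs and a threshold of 0.05. The fit was also run on simulated independent values with planted changes larger than any of the 37 differences. That run therefore says nothing about differences of their size. Shares were compared by exact permutation. The members, the lists and the tests were chosen with earlier results of these data known. Plots were made in Python 3.11.15 by matplotlib 3.10.9.

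Alternatives were a pseudocount of 0.1, a minimum mean of 0.1 FPKM, no filter, centring on the median, TMM factors (trimmed mean of M-values, unweighted, with 30% and 5% trimmed, over the tested IDs), quantile normalization, no trend, a replicate block, other denominators and omission of each library. A crossed replicate block, scaling to the mitochondrial sum, scaling without the most abundant other ID and adding near-identical IDs were chosen after seeing the data.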

Additional observations from a re-analysis of the deposited data

How the results depend on the processing

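The count of mitochondrial genes past the adjusted threshold (limma) was 0 higher and 0 lower under each alternative run, the replicate block and the omission of each library included. Of the 37 log2 differences, all kept their direction with a pseudocount of 0.1 and with scaling without the most abundant other ID. Filters, trend and balanced blocks cannot change a difference of group means. Direction changed in 3 with median centring, 4 with TMM factors, 5 with quantile normalization and 6 with scaling to the mitochondrial sum, and in 4 to 8 when 1 library was left out (8 without miR-187 replicate 1). Among genes with a printed difference, ENSMUSG00000064357.1 became 0.029 after median centring and 0.033 under TMM scaling and ran from -0.283 to 0.267 when 1 library was left out. ENSMUSG00000064341.1 became -0.055 under quantile normalization, and no cause of these changes was tested.

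The log2 difference in the mitochondrial share of the FPKM sum, 0.18, was -0.026 when miR-187 replicate 2 was left out and 0.394 when miR-187 replicate 1 was left out, the extremes over the 4 omissions. A balanced replicate block cannot change it (0.18). Over all IDs, the fit called 0 higher and 1 lower. The counts were 31 and 15 with a minimum mean of 0.1 FPKM, 33 and 18 with the replicate block, 20 and 12 with scaling without the most abundant other ID and 17 and 14 with scaling to the mitochondrial sum. They were 0 lower without a filter and 0 lower with quantile normalization, and ran from 10 to 60 higher and from 14 to 55 lower without 1 library; an arm of 1 library was assumed to vary like the other. Deviations of same-numbered libraries correlated with r = -0.07 across tested IDs and r = -0.46 across the 37 genes, and no label ties them to a shared litter or batch, so the design was treated as unpaired. A crossed replicate block, added after seeing the data, called 33 higher and 20 lower of all IDs and 0 of the 37. Depth limits cannot be given.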
